A study of Mus musculus with 12 samples.

Results

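The early transcriptional response of wildtype mouse fibroblasts to arsenite is described here, from the 3 arrays of arsenite-treated wildtype (WT) cells and the 3 arrays of untreated WT cells among the 12 arrays of the study. The arrays were chosen by their code in the column names of the full table of normalised signals. Each treated array was set against the untreated array of the same replicate experiment. Across these 6 arrays, 20753 genes were measured by at least 1 probe set (a group of short probes for 1 transcript) that names a single gene. The arrays were not chosen by any measured value, but most genes named below were, by the size of their change.

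The cells were mouse embryonic fibroblasts (MEF) from embryos of 12.5 to 14.5 days, made to divide without limit by SV40 large T antigen, a viral protein that binds p53 and the retinoblastoma protein. Both genotypes carry the same strain label, which joins B6.129P2-Ppp1r15A tm1.1.Ajf/Mmnc and C57Bl/6, with the genotype given as WT or as homozygous knockout (KO) of GADD34, the protein of the gene Ppp1r15a. All cultures were kept in DMEM with 10% fetal bovine serum and 50 µM beta-mercaptoethanol, itself a thiol. The treated WT group was given sodium arsenite, from a solution in water, at 0.1 mM and was lysed 2 h later. The untreated WT group is labelled untreated, with no vehicle named. The KO cells, treated and untreated in the same way, share the fit and so its estimate of the spread, and their values are given for the targeted gene and for the comparison of responses. The labels do not say whether a genotype is 1 clone or a pool of embryos, so p-values cover only how far repeats of the experiment on these cultures differed.

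Arsenite is a trivalent arsenic compound that binds neighbouring thiols of proteins. In cultured cells it is a standard agent of oxidative and proteotoxic stress. It activates the eIF2-alpha kinase HRI, stress-activated MAP kinases, heat shock factor HSF1, the antioxidant factor NRF2 and the metal-responsive factor MTF1. Phosphorylated eIF2-alpha slows most protein synthesis while favouring translation of ATF4, which raises transcription of stress genes that include CHOP (Ddit3) and GADD34. GADD34 brings protein phosphatase 1 back to eIF2-alpha and so ends the block.

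Values are log2 signals after RMA, so a difference of 1 is a doubling of signal, and signals of different genes are not compared with each other. A change is the mean of the 3 differences between treated and untreated arrays, with its standard error (SE) from the fit. The 40th percentile of all array values, 5.35, served as a floor: a value under it can be background, so a change from or to such a value may be larger than measured. Array medians lay between 5.92 and 5.96. The WT arrays of a group correlated at 0.994 to 0.996 across genes, which are not independent replicates. Of 12 fibroblast markers, 11 had a mean above the floor in WT cells, with Lum below it. Thy1 was the only 1 of them called (-0.43, adjusted p = 0.0108). Their mean level was 10.04 to 10.46 on untreated and 9.95 to 10.45 on treated arrays. Mean levels of endothelial, macrophage, epithelial, neural, muscle, adipocyte, erythroid and pluripotent marker lists all lay between 4.24 and 6.02 on the 6 arrays. The defining genes Pecam1, Cdh5, Ptprc, Adgre1, Cdh1, Sox2, Myog, Adipoq, Alas2 and Nanog were under the floor in both groups. Other members stood above it, in 2 of 8 endothelial, 4 of 7 macrophage, 4 of 7 epithelial, 4 of 8 neural, 3 of 7 muscle, 2 of 4 adipocyte, 0 of 3 erythroid and 1 of 4 pluripotent markers, among them Kdr at 7.79, Cd14 at 9.96, Csf1r at 6.82, Cd68 at 6.08, Epcam at 7.46, Krt19 at 8.17, Map2 at 9.06, Myod1 at 5.52 and Pparg at 8.04 in untreated cells. None of those markers was called. The 3' minus 5' signal of Actb, which rises as RNA degrades, was 0.26 to 0.37 on untreated and 0.22 to 0.27 on treated arrays. In bulk RNA, fewer cells of a kind and less RNA per cell cannot be told apart.

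After 2 h of arsenite, 641 genes were called up and 372 were called down, with a threshold of 0.05 on the adjusted p (limma, Benjamini-Hochberg over all genes), that is 3.09% and 1.79% of the genes tested and 4.88% together. The response was lopsided in size. Of the genes called up, 210 rose at least 2-fold, 62 at least 4-fold and 9 at least 16-fold, against 37 and 4 genes that fell at least 2-fold and 4-fold. The median change was 0.73 in genes called up, -0.52 in genes called down and -0.01 over all genes. The treated and untreated arrays did not overlap in 612 of the genes called up and 325 of those called down. Over all genes tested, 9.84% had all treated arrays above and 10.6% all treated arrays below the untreated ones. Every called gene moved the same way in all 3 experiments. The untreated mean lay under the floor in 39 genes called up, and the treated mean in 42 genes called down. At an unadjusted p under 0.05, 4043 genes passed.

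**Figure D1:**
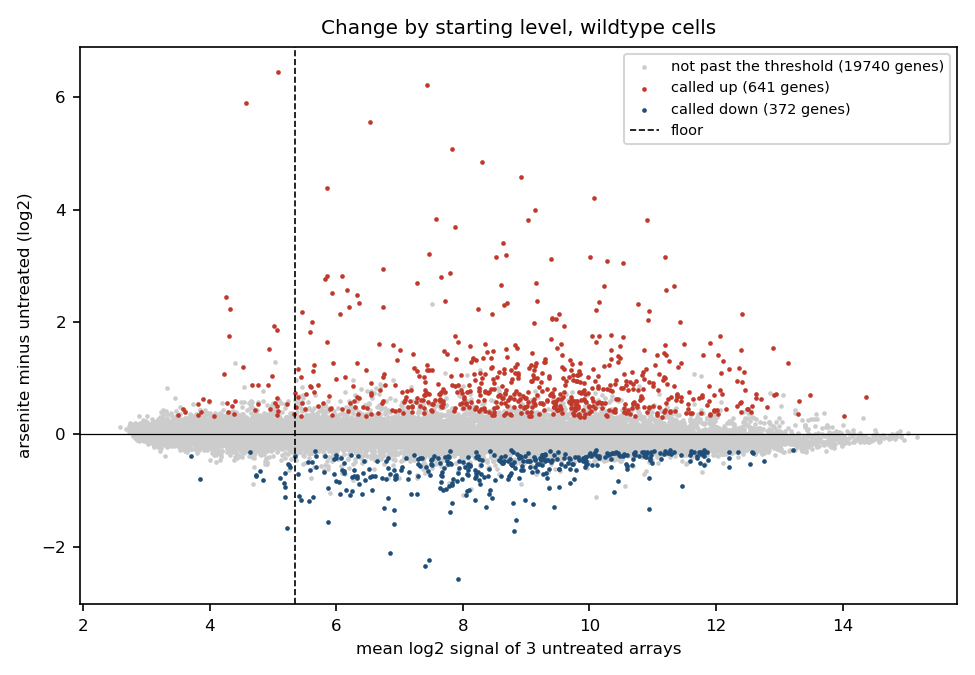
Each point is 1 of 20753 genes. The x axis is the mean log2 signal of the 3 untreated WT arrays and the y axis the change under arsenite in log2 units, with the 641 genes called up in red, the 372 called down in blue and the floor of 5.35 dashed. Rises reached 6.44 and falls -2.57, and genes called up lie on both sides of the floor.

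The number of calls depended on the design and on single arrays. Without the replicate experiment as a block, 441 genes were called, 342 up and 99 down, all of them among the genes called above in the same direction. Leaving out the untreated array of experiment 1, 2 or 3 left 541, 518 or 693 calls, and leaving out the treated array of experiment 1, 2 or 3 left 501, 526 or 656. In each of those 6 fits, 317 of the 641 genes called up and 89 of the 372 called down were called again, a larger share of the rises than of the falls.

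Ppp1r15a, the targeted gene, checks the labels. Its signal was 8.45, 8.57 and 8.88 on the untreated WT arrays of experiments 1, 2 and 3 and 12.24, 12.25 and 11.60 on the treated ones, so every treated array stood above every untreated array. The change was 3.40 ± 0.20 (SE), or 10.5-fold (adjusted p = 7.19e-06). In KO cells the signal was 6.42, 6.34 and 6.20 untreated and 6.27, 6.71 and 5.88 treated, below all WT arrays. The sources used here do not say whether the probe set lies in the deleted part of the gene. Among 19 genes of the eIF2 kinases, phosphatase subunits and the exchange factor eIF2B, 3 were called up (15.8%, against 3.09% of all genes) and none down. The list's median change was -0.09. Ppp1r15b, which encodes the constitutive phosphatase subunit CReP, read 10.18, 10.23 and 10.23 untreated and 10.91, 11.08 and 11.10 treated, a rise of 0.81 ± 0.08 (SE, adjusted p = 0.000411). Eif2s2, the beta subunit of eIF2, rose by 0.37 ± 0.08 (SE), a call lost when a single WT array was left out (highest adjusted p = 0.164). Its 6 probe sets ranged from -0.16 to 1.68. None of the 4 eIF2 kinase genes Eif2ak1 to Eif2ak4 passed the threshold, and the largest changes among the members that did not pass were -0.23 for Eif2b5 and 0.22 for Eif2b2, both eIF2B subunits.

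Immediate early genes held most of the largest rises. These genes are transcribed within minutes of a growth or stress signal without new protein synthesis, and many encode transcription factors. Of 35 members, 25 were called up (71.4%, against 3.09% of all genes) and none down, with a median change of 1.39. The members of this list, like those of the other lists, were chosen with earlier results of these data known. The shares therefore describe the lists and are not a test of them. The share of all genes set beside them includes genes under the floor: 14358 of 20753 were above it in a WT group. With dim genes left out of the fit, 696 of 14767 genes were called up and 535 down, which are larger shares. Between 22 and 24 were called up with any 1 WT array left out, and 23 without the block. Egr3, a zinc-finger factor, read 5.65, 5.18 and 4.42 untreated, mostly under the floor, and 11.31, 10.99 and 12.27 treated, a rise of 6.44 ± 0.57 (SE, adjusted p = 0.000155). A further probe set of Egr3 gave only 0.18. Atf3, a stress-induced member of the ATF and CREB family, went from 7.37, 7.31 and 7.61 to 13.82, 13.66 and 13.43, a rise of 6.21 ± 0.12 (SE, adjusted p = 2.73e-09), the smallest adjusted p among the named genes. Fosb, a subunit of the AP-1 dimer, read 4.80, 4.24 and 4.69 untreated, all under the floor, and 10.90, 10.0 and 10.53 treated, a rise of 5.90 ± 0.24 (SE, adjusted p = 8.28e-07). The related gene Fos read 8.68, 7.40 and 7.39 and 13.55, 11.90 and 13.27, a rise of 5.08 ± 0.25 (SE, adjusted p = 1.96e-06). Untreated Fos was higher in experiment 1 than in the other experiments. In none of these genes did treated and untreated arrays overlap.

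Other members among the largest rises were Egr2, Egr1, Nr4a1, Arc, Junb, Csrnp1 and Btg2. Egr2 went from 6.91, 6.35 and 6.34 to 12.27, 11.59 and 12.40 (5.55 ± 0.38, SE) and its relative Egr1 from 11.32, 10.70 and 10.71 to 14.85, 14.60 and 14.73 (3.82 ± 0.47, SE, adjusted p = 0.00107). Nr4a1, an orphan nuclear receptor, went from 9.05, 8.92 and 8.81 to 13.90, 12.89 and 13.71 (4.57 ± 0.44, SE, adjusted p = 0.000236). Arc, best known from synapses, went from 5.80, 5.99 and 5.76 to 9.93, 10.19 and 10.56 (4.38 ± 0.16, SE, adjusted p = 4.01e-07). Junb, a further AP-1 subunit, rose by 3.83 ± 0.18 (SE). Csrnp1, a nuclear protein first described as induced by AXIN1 in human cells, rose by 3.99 ± 0.21 (SE), but a further probe set gave 0.28. Btg2, an antiproliferative gene under p53, went from 9.51, 9.28 and 8.31 to 12.86, 12.42 and 13.24 (3.81 ± 0.28, SE, adjusted p = 4.35e-05), with its lowest untreated and highest treated array both in experiment 3. The list's other genes called up were Ier2, Jun, Klf10, Nr4a3, Fosl1, Ier5, Maff, Klf11, Klf9, Ier3, Mcl1, Klf6, Jund and Nab2. Klf4 (1.08, adjusted p = 0.0739) and Nr4a2 (1.06, adjusted p = 0.0599) had the largest changes among the 10 members that did not pass.

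**Figure D2:**
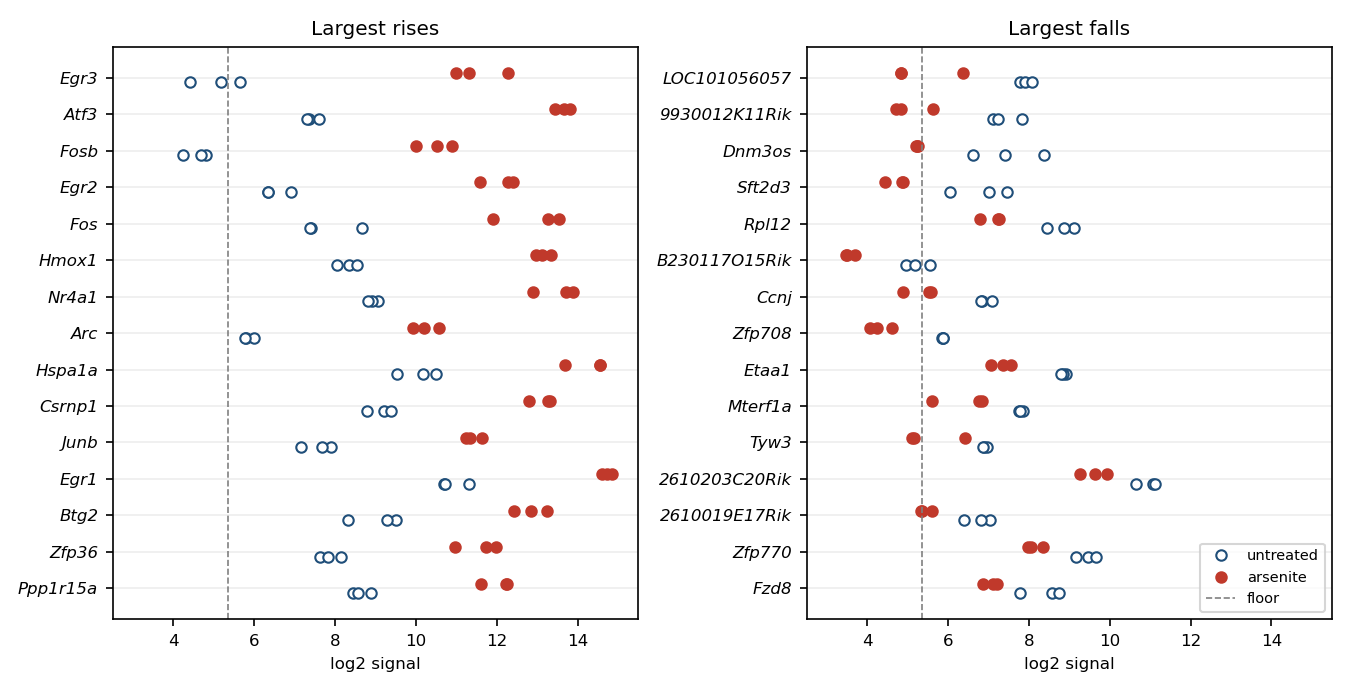
Log2 signal (x axis) of the 6 WT arrays for the 15 genes with the largest rise (left) and the 15 with the largest fall (right) among called genes whose groups do not overlap. Open circles are the 3 untreated arrays, filled circles the 3 arsenite arrays and the dashed line the floor of 5.35. Rises ran from 3.40 in Ppp1r15a to 6.44 in Egr3, and falls from -1.30 in Fzd8 to -2.57 in LOC101056057.

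Some genes that damp growth signalling were called up. Of 21 MAP kinase phosphatase and Sprouty-type genes, 8 were called up (38.1%, against 3.09% of all genes) and none down (median change 0.27), 7 or 8 with any 1 WT array left out and 6 without the block. Errfi1, an inhibitor of the EGF receptor kinase, read 9.99, 10.64 and 9.41 untreated and 12.97, 13.36 and 13.21 treated, a rise of 3.16 ± 0.28 (SE, adjusted p = 0.000163). Dusp2, a nuclear MAP kinase phosphatase, read 6.11, 6.20 and 6.19 and 8.70, 8.77 and 8.72, with nearly equal changes of 2.59, 2.57 and 2.53 in experiments 1, 2 and 3 (2.56 ± 0.21, SE, adjusted p = 9.55e-05). Dusp5, which acts on nuclear ERK, differed by 1.48, 2.60 and 2.93 (2.34 ± 0.37, SE, adjusted p = 0.00495, and 0.0627 without the block). Dusp8, a phosphatase of JNK and p38, rose by 1.48 ± 0.17 (SE), with 0.24 in another probe set. Dusp1, Spry2, Dusp16 and Spred2 were called up as well. Spry4 (0.96) and Dusp10 (0.64) did not pass. Of 15 genes of the EGF receptor family, 2 were called up (13.3%, against 3.09% of all genes), both ligands. Hbegf went from 11.08, 11.39 and 10.32 to 12.77, 13.25 and 12.86 (2.03 ± 0.23, SE, adjusted p = 0.000629) and Areg from 6.12, 6.45 and 4.89 to 8.22, 8.99 and 8.52 (2.76 ± 0.47, SE, adjusted p = 0.00761, and 0.114 without the block). Another ligand, Ereg, differed by 0.01, 0.67 and 1.50 in the 3 experiments and did not pass (adjusted p = 0.323).

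Zfp36, which encodes tristetraprolin, a protein that marks mRNAs with AU-rich elements for decay, went from 8.16, 7.63 and 7.82 to 11.73, 10.97 and 11.97, a rise of 3.69 ± 0.17 (SE, adjusted p = 1.53e-06). It led a list of 18 mRNA decay and binding genes with 5 called up (27.8%, against 3.09% of all genes) and none down (median change 0.09). Cnot4, a ubiquitin ligase of the deadenylase complex, rose by 0.74 ± 0.10 (SE, adjusted p = 0.00186), with 0.21 in its least changed probe set. The calls of Zc3h12a (0.60), an RNase that cuts inflammatory mRNAs, and of Btg1 (0.48) were lost with 1 array left out (highest adjusted p = 0.137 and 0.179). Their least changed probe sets gave 0.10 and 0.06. With any 1 WT array left out, 2 or 3 members were called up. The other Zfp36 family members were not called: Zfp36l1 differed by 0.38 (adjusted p = 0.338).

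Targets of ATF4 and CHOP, the transcription factors downstream of phosphorylated eIF2-alpha, were called up in 16 of 31 members (51.6%, against 3.09% of all genes). None was called down, and the median change was 0.53. With any 1 WT array left out, 13 to 15 were called up, and 14 without the block. Trib3, a pseudokinase induced by CHOP, read 7.23, 7.03 and 8.15 untreated and 10.81, 10.76 and 10.46 treated, a rise of 3.21 ± 0.37 (SE, adjusted p = 0.000636). Chac1, an enzyme that degrades glutathione, went from 8.18, 8.94 and 8.91 to 11.21, 12.29 and 12.12 (3.20 ± 0.23, SE, adjusted p = 3.96e-05). Gdf15, a secreted stress hormone, went from 9.19, 8.29 and 8.11 to 11.78, 11.50 and 11.75 (3.15 ± 0.25, SE, adjusted p = 8.05e-05). In all of these the lowest treated array stood more than 2 log2 units above the highest untreated one. Ddit3, Sesn2, Cebpb, Atf4, Ddit4, Slc3a2, Trib1, Nupr1, Slc38a2, Slc7a1, Cebpg and Mthfd2 were also called up. Asns, Phgdh, Psph and Shmt2 were among the 15 members not called. Slc7a11, the cystine transporter, read 4.52, 5.06 and 5.16 and 5.35, 5.32 and 5.65, close to the floor, and did not pass (0.53, adjusted p = 0.0771). Of 37 aminoacyl-tRNA synthetase and scaffold genes, 1 was called up (2.70%) and 2 down (5.41%, against 1.79% of all genes). Of the 37, 36 were above the floor in a WT group. The list pools cytosolic synthetases, many of them textbook ATF4 targets, with mitochondrial ones and scaffold genes, which were not counted apart. At an unadjusted p under 0.05 in the same fit, 9 members were up and 10 down. Aars rose by 0.71 ± 0.15 (SE), a call lost with 1 array left out (highest adjusted p = 0.13). Mitochondrial Pars2 fell, from 7.96, 7.94 and 8.06 to 7.10, 6.99 and 7.47 (-0.80 ± 0.10, SE, adjusted p = 0.00142). The fall of Aimp1, a scaffold of the synthetase complex, by 0.30 was lost with 1 array left out (highest adjusted p = 0.135).

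Among 30 chaperone and degradation genes of the endoplasmic reticulum, 4 were called up (13.3%, against 3.09% of all genes) and none down (median change -0.04). With any 1 WT array left out 4 were called up, and 3 without the block, where Xbp1 did not pass (adjusted p = 0.0955). Herpud1, which takes part in degradation of misfolded proteins, went from 9.54, 9.08 and 9.92 to 11.71, 11.62 and 11.65 (2.15 ± 0.20, SE, adjusted p = 0.000198). Dnajb9, a cochaperone of the lumen, went from 10.19, 9.79 and 10.45 to 12.01, 11.91 and 11.77 (1.75 ± 0.16, SE, adjusted p = 0.00018). Hspa5, the chaperone BiP, rose by 0.69 ± 0.09 (SE) and Xbp1, a factor of the unfolded protein response, by 0.66 ± 0.09 (SE). The least changed probe sets of these 2 genes gave 0.22 and 0.20. Hsp90b1, Calr, Canx and the Pdia and Derl genes of the list were not called. Edem3 (-0.37) and Sel1l (-0.32) had the largest changes among them and did not pass.

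Promoter sequences of 6 of the induced genes are shown because each holds the letters of a known stress or growth response motif. They are from RefSeq (GRCm38.p6), run 5′ to 3′ on the gene's strand and cover 250 bases before and 50 after an annotated start. Atf3 lies on the minus strand (chr1:191183284-191183583), Chac1 on the plus strand (chr2:119350992-119351291), Ppp1r15a on the minus strand (chr7:45526219-45526518), Btg2 on the minus strand (chr1:134079106-134079405), Egr2 on the plus strand (chr10:67537619-67537918, 1 of 5 annotated starts) and Mt2 on the plus strand (chr8:94172368-94172667). Capitals mark the C/EBP-ATF composite element TTGCATCA in Atf3 and Chac1, the cAMP response element TGACGTCA in Ppp1r15a and Btg2, the serum response element in Egr2 and the metal response elements (TGCACNC or TGCGCNC) in Mt2.
Atf3: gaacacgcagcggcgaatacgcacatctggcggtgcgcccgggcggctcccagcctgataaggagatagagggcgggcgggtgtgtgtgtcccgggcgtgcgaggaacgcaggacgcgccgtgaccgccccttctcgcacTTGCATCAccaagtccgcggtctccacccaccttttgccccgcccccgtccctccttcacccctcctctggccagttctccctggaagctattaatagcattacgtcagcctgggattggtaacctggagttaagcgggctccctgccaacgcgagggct
Chac1: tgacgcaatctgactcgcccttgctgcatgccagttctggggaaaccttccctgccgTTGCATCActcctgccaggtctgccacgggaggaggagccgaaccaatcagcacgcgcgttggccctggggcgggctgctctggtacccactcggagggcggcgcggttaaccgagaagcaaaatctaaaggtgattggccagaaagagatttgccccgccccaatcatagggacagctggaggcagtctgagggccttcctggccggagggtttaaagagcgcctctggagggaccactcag
Ppp1r15a: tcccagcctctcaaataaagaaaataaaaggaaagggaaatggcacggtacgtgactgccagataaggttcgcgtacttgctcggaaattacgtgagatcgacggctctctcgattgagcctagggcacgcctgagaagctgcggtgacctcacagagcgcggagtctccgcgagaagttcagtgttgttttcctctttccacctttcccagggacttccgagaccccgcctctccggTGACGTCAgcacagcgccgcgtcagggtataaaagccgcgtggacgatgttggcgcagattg
Btg2: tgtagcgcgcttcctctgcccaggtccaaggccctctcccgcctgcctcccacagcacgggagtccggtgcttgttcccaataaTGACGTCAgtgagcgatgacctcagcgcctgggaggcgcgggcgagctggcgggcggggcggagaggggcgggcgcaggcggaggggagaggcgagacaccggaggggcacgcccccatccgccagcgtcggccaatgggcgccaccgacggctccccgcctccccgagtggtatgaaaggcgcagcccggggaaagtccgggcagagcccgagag
Egr2: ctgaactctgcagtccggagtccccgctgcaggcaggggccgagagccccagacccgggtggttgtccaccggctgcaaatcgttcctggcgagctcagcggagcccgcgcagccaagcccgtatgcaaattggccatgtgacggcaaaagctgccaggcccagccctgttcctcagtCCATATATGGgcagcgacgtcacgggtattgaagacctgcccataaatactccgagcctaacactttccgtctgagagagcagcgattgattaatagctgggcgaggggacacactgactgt
Mt2: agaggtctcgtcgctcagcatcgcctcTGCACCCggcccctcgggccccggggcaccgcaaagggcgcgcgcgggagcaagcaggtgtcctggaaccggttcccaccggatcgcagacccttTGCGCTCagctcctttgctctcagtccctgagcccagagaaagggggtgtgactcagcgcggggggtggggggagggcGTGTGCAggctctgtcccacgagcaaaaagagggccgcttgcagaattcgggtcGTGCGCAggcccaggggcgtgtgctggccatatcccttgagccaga

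Matches were searched on both strands, and no base of these 6 promoters belonged to more than 1 of the 4 motifs. With 1 at the start and -1 at the base before it, the composite element spanned bases -110 to -103 in Atf3 and -193 to -186 in Chac1. The cAMP response element spanned bases -12 to -5 in Ppp1r15a and -166 to -159 in Btg2, and the serum response element bases -72 to -63 in Egr2. Mt2 held 4 metal response elements. Atf3 and Btg2 also held 1 each, left in lower case. Of all 32851 promoters in the table, 0.895% held the composite element, 1.79% the cAMP response element, 1.63% the serum response element and 25.7% a metal response element. A match is a run of letters, not a binding site. Shares of motifs were not compared between called and other genes: only 76.4% of the genes called up and 69.2% of the genes tested had a promoter in the table, under the 80% set for such a check, which makes it void.

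Chaperones and cochaperones of the heat shock response rose in part. The list was not limited to cytosolic chaperones: it held mitochondrial Hspa9 and Hspe1 and the heat shock factors Hsf1, Hsf2 and Hsf4. Of 53 members, 11 were called up (20.8%, against 3.09% of all genes) and none down (median change 0.05). Between 6 and 11 were called up with any 1 WT array left out, and 6 without the block. Hspa1a, one of the stress-inducible HSP70 genes, read 10.18, 9.52 and 10.50 untreated and 14.57, 14.55 and 13.70 treated, a rise of 4.20 ± 0.37 (SE, adjusted p = 0.000147). Hspa1b went from 12.97, 12.66 and 13.06 to 14.56, 14.63 and 14.10 (1.54 ± 0.18, SE, adjusted p = 0.000662). Its treated signal was near the top of the range of all genes. Hspa1a and Hspa1b are near-identical neighbours and Hspa1l is closely related, so probes can read the RNA of more than 1 of them. Dnajb1, the HSP40 partner of HSP70, went from 11.35, 11.23 and 11.02 to 14.08, 14.22 and 13.04 (2.58 ± 0.16, SE, adjusted p = 1.22e-05). The calls of Hspa1l (2.44) and Hsph1 (1.59), a nucleotide exchange factor of HSP70, were lost with 1 array left out (highest adjusted p = 0.154 and 0.172). Bag3, Hspb1, Dnajb4, Dnajb5, Hspa2 and Hsp90aa1 were called up as well. Dnaja4, a cytosolic HSP40, read 7.33, 7.58 and 7.65 untreated and 10.21, 10.81 and 8.50 treated, but its change of 2.32 did not pass (adjusted p = 0.0722). Constitutive Hspa8, Hsp90ab1, the factor Hsf1 itself and the chaperonin genes Tcp1 and Cct2 to Cct8 were not called.

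Of 38 ubiquitin, proteasome and autophagy genes, 6 were called up (15.8%, against 3.09% of all genes) and none down (median change 0.03). With any 1 WT array left out 4 to 6 were called up, and 4 without the block. Zfand2a, which encodes the arsenite-inducible proteasome adaptor AIRAP, read 10.60, 10.78 and 10.93 untreated and 13.04, 13.61 and 12.62 treated, a rise of 2.32 ± 0.34 (SE, adjusted p = 0.00292). Its 4 probe sets ranged from 0.74 to 2.39. Sqstm1, the autophagy receptor p62, went from 11.55, 11.68 and 12.15 to 13.24, 13.33 and 13.06 (1.42 ± 0.20, SE, adjusted p = 0.00231). Zfand5, a ubiquitin-binding activator of the proteasome, rose by 1.30 ± 0.14 (SE), though its 7 probe sets ranged from 0.02 to 1.40. Gabarapl1 and Map1lc3b, of the autophagosome, were also called up. No gene of the proteasome core or cap was called, and the largest change among them was -0.30 in Psmb5 (adjusted p = 0.0536). Arsenite is the classic trigger of stress granules, but none of 25 genes for stress granule proteins was called by limma, with 2 at an unadjusted p under 0.05 and a median change of 0.00. Without the block none was called either. The largest change was 0.26 in Ddx3x (adjusted p = 0.131).

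Hmox1, which encodes heme oxygenase 1, the enzyme that opens the heme ring, read 8.04, 8.34 and 8.53 untreated and 13.12, 13.35 and 12.98 treated. Its rise of 4.85 ± 0.17 (SE), or 28.8-fold, stood beside those of the immediate early factors (adjusted p = 4.01e-07). Other genes of the NRF2 programme had smaller changes. Of 40 heme, NRF2 and antioxidant genes, 5 were called up (12.5%, against 3.09% of all genes) and 1 down (2.5%, against 1.79%), with a median change of -0.10. With any 1 WT array left out, 4 or 5 were called up. Osgin1, an oxidative stress gene, rose by 1.24 ± 0.17 (SE, adjusted p = 0.0022) and Mafk, a small Maf partner of NRF2, by 1.01 ± 0.09 (SE, adjusted p = 0.000175). Nfe2l2, the gene of NRF2 itself, went from 10.48, 10.30 and 10.21 to 11.31, 11.16 and 11.15 (0.88 ± 0.12, SE, adjusted p = 0.0017), with 0.26 in its other probe set. Gclc, the catalytic subunit of the first enzyme of glutathione synthesis, was also called up, and G6pdx, of the pentose phosphate pathway, was called down, a call lost with any WT array left out and without the block. Established NRF2 targets such as Nqo1, Gclm and Txnrd1 were not called. Srxn1, sulfiredoxin, read 8.92, 9.32 and 9.32 and 9.44, 10.18 and 9.94 and did not pass (0.67, adjusted p = 0.142). Bach1, the repressor of Hmox1, differed by 0.69, with an adjusted p of 0.0503.

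Mt1 and Mt2 rose. They encode metallothioneins, small cysteine-rich proteins that bind zinc and other metals. Mt2 went from 11.20, 10.71 and 11.67 to 14.28, 14.49 and 14.29 (3.16 ± 0.27, SE, adjusted p = 0.000133) and Mt1 from 12.35, 11.97 and 12.91 to 14.44, 14.68 and 14.54 (2.14 ± 0.23, SE, adjusted p = 0.000445). Slc30a1, the zinc exporter ZnT1 and like them a target of MTF1, went from 7.87, 7.87 and 8.0 to 9.43, 9.95 and 9.32 (1.65 ± 0.19, SE, adjusted p = 0.000629). In all of them the groups stood clear of each other. With Mtf2 (0.51, and 0.07 in its least changed probe set), a Polycomb protein despite its name, they were the 4 of 28 metal genes called up (14.3%, against 3.09% of all genes). None was called down (median change -0.03), and Mtf2 was not called without the block. The other zinc carriers, Mt3, Mt4 and Mtf1 did not pass. Of 19 genes of arsenic uptake, methylation and efflux, 2 were called up (10.5%, against 3.09% of all genes) and none down (median change 0.08). Both encode carriers known to be able to move arsenic species: Slc20a1, a phosphate carrier, went from 10.08, 10.55 and 10.40 to 11.30, 11.96 and 11.77 (1.33 ± 0.14, SE, adjusted p = 0.000359, with 0.14 in its least changed probe set), and Slc2a1, the glucose carrier GLUT1, from 11.85, 11.94 and 11.86 to 12.64, 12.73 and 12.87 (0.87 ± 0.10, SE, adjusted p = 0.000607). As3mt, the arsenic methyltransferase, the aquaglyceroporins Aqp3, Aqp7 and Aqp9 and the efflux pumps Abcc1 and Abcc2 were not called.

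Growth arrest genes linked to p53 were called up in 13 of 28 members (46.4%, against 3.09% of all genes) and down in none (median change 0.35). With any 1 WT array left out 11 to 13 were called up, and 10 without the block. These cells carry large T antigen, which binds p53, and several members are also targets of ATF4 or of stress kinases. Which factor acted on these genes was not tested. Sesn2, a sestrin that restrains mTORC1 and also an ATF4 target, read 7.81, 7.82 and 7.77 untreated and 10.90, 10.76 and 10.37 treated (2.88 ± 0.14, SE, adjusted p = 1.96e-06). Gadd45a, a stress sensor of cell cycle arrest, went from 7.42, 7.24 and 8.32 to 10.21, 10.55 and 10.60 (2.80 ± 0.26, SE, adjusted p = 0.00022). Plk3, a stress-induced Polo-like kinase, went from 7.45, 7.96 and 7.72 to 9.86, 10.16 and 10.25 (2.38 ± 0.21, SE, adjusted p = 0.000172). Gadd45g, a relative of Gadd45a, differed by 1.11, 1.92 and 2.96 in the 3 experiments (2.0 ± 0.28, SE, adjusted p = 0.00247). Cdkn1a, which encodes p21, the best known p53 target, read 12.26, 11.67 and 11.37 and 13.14, 12.68 and 12.58: the groups did not overlap, but the change of 1.04 did not pass (adjusted p = 0.0677). Bax, Ccng1, Sesn1, Phlda3 and Zmat3, also p53 targets, were not called, and Trp53 itself was not.

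Of 20 Bcl2 family genes, 5 were called up (25%, against 3.09% of all genes) and none down (median change 0.01). With any 1 WT array left out 3 or 4 were called up, and 2 without the block. The list held both sides of the balance. Pmaip1 (NOXA), which promotes death, went from 10.76, 10.47 and 10.35 to 12.18, 12.33 and 12.24 (1.72 ± 0.23, SE, adjusted p = 0.00155), and Mcl1, which NOXA binds and which protects cells, from 12.15, 11.99 and 12.09 to 13.14, 12.99 and 13.36 (1.08 ± 0.09, SE, adjusted p = 8.71e-05). The least changed of the 6 probe sets of Mcl1 gave 0.36. Bbc3 (PUMA), also a death-promoting member, rose by 0.75 ± 0.11 (SE). The call of Bmf (0.48) was lost with 1 array left out, and another of its probe sets gave -0.74. Bcl10, the other gene called, shares the name but acts in NF-kB signalling.

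Among 39 cytokine, chemokine and NF-kB genes, 8 were called up (20.5%, against 3.09% of all genes) and none down (median change 0.25), 4 to 6 with any 1 WT array left out and 4 without the block. They were mostly regulators: Nfkbiz, Rel, Socs3, Relb, Bcl3 and Rela, with the chemokines Cxcl10 and Cxcl1. Nfkbiz, a nuclear IkB protein, rose by 2.30 ± 0.21 (SE, adjusted p = 0.000207), though 1 of its 3 probe sets gave 0.08. Rel, the c-Rel subunit, went from 6.56, 6.85 and 6.81 to 9.20, 9.09 and 8.73 (2.26 ± 0.29, SE, adjusted p = 0.0012). The calls of Socs3 (1.69), an inhibitor of cytokine receptors, and Cxcl10 (1.51) were lost with 1 array left out (highest adjusted p = 0.0582 and 0.148). The inflammatory genes Il6, Tnf, Il1b, Ccl2 and Ptgs2 were not called. Ptgs2, cyclooxygenase 2, was already at 13.18, 13.29 and 12.73 in untreated cells and read 13.64, 13.89 and 13.79 treated (0.71, adjusted p = 0.391).

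Feedback genes of TGF-beta signalling and Notch output were called up in 9 of 32 members (28.1%, against 3.09% of all genes) and down in none (median change 0.22). With any 1 WT array left out 4 to 7 were called up, and 5 without the block. Skil, which encodes the SMAD corepressor SnoN, went from 10.34, 10.21 and 9.78 to 11.61, 11.91 and 11.72 (1.64 ± 0.16, SE, adjusted p = 0.000343). Tgif1, a further SMAD corepressor, rose by 1.26 ± 0.16 (SE, adjusted p = 0.00108), and Smad7, the inhibitory SMAD, by 1.15 ± 0.12 (SE, adjusted p = 0.000436). Hes1, a Notch target, rose by 1.21 ± 0.24 (SE), a call lost with 1 array left out (highest adjusted p = 0.0876). YAP and SRF cytoskeletal targets, which also respond to serum and spreading, held 1 gene called up among 36 (2.78%), Fhl2 (0.54, lost with 1 array left out), and a median change of -0.05.

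Single regulators of metabolism were called up in lists where most members were not. Vegfa, the vascular growth factor, went from 9.04, 8.74 and 8.0 to 11.22, 11.73 and 10.80 (2.66 ± 0.23, SE, adjusted p = 0.000147). With Slc2a1 and Hk2, hexokinase 2 (0.72 ± 0.11, SE, and adjusted p = 0.176 without the block), it was 1 of 3 genes called up among 30 of glucose uptake, glycolysis and hypoxia (10%, against 3.09% of all genes). Egln1 (-0.28) was the 1 gene called down (3.33%, against 1.79%), a call lost with 1 array left out. The median change was -0.03. No glycolytic enzyme beyond Hk2 was called. Of 27 cholesterol genes, 6 were called up (22.2%, against 3.09% of all genes) and none down (median change 0.08). With any 1 WT array left out 2 to 5 were called up, and 2 without the block. Insig1, which holds SREBP in check, went from 10.17, 10.16 and 11.11 to 11.95, 11.87 and 12.32 (1.57 ± 0.20, SE, adjusted p = 0.00139). The calls of Cyp51 (0.90) and Hmgcs1 (0.80) were lost with 1 array left out (highest adjusted p = 0.111 and 0.052). The 5 probe sets of Hmgcs1 ranged from -0.29 to 1.10. Of 12 polyamine genes 2 were called up (16.7%, against 3.09% of all genes), Azin1 (0.79 ± 0.08, SE, adjusted p = 0.000436), which relieves ornithine decarboxylase of its inhibitor, and Sat1 (0.64 ± 0.12, SE), which acetylates spermidine. The call of Sat1 was lost with 1 array left out (highest adjusted p = 0.0778). Odc1 itself did not pass (0.30, adjusted p = 0.105).

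Of 21 clock genes, 5 were called up (23.8%, against 3.09% of all genes) and none down (median change 0.15). With any 1 WT array left out 3 or 4 were called up, and 3 without the block. Nfil3, a repressor of D-box genes, went from 9.37, 9.01 and 9.12 to 11.69, 11.31 and 11.63 (2.38 ± 0.24, SE, adjusted p = 0.000387). Bhlhe40, an E-box repressor, went from 9.49, 9.11 and 9.83 to 11.47, 11.46 and 11.65 (2.05 ± 0.28, SE, adjusted p = 0.00213), and Ciart, a further repressor, from 6.87, 6.87 and 7.17 to 8.32, 8.31 and 8.22 (1.32 ± 0.10, SE, adjusted p = 6.23e-05). Per1 was called up too. Arntl, the activator BMAL1, rose by 1.48 ± 0.29 (SE), a call lost with 1 array left out (highest adjusted p = 0.1). Per2, Cry1, Cry2 and Clock were not called.

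Regulators of RNA polymerase II were called up and those of splicing in both directions. Of 29 elongation and pausing genes, 8 were called up (27.6%, against 3.09% of all genes) and none down (median change 0.15). With any 1 WT array left out 7 or 8 were called up, and 6 without the block. Ccnl1, a cyclin tied to splicing and transcription, went from 10.09, 10.24 and 10.14 to 12.75, 12.46 and 12.32 (2.35 ± 0.12, SE, adjusted p = 1.96e-06). Med26, Ell2 and Hexim1 rose by 0.99, 0.94 and 0.92. They encode a Mediator subunit, an elongation factor and the inhibitor of P-TEFb, but a further probe set of each gave -0.03, -0.02 and -0.04. Ccnt1 and Ccnt2, the cyclins of P-TEFb, were called up, and its kinase gene Cdk9 was not. Of 31 splicing genes, 8 were called up (25.8%, against 3.09% of all genes) and 2 down (6.45%, against 1.79%), with a median change of 0.15. Called up were 3 to 7 if any 1 WT array was left out, and 5 without the block. Clk1, a kinase of SR proteins, went from 10.35, 10.22 and 10.46 to 12.37, 11.74 and 11.43 (1.50 ± 0.19, SE, adjusted p = 0.00114). Its relative Clk2 went the other way, from 8.72, 8.83 and 8.66 to 8.05, 7.82 and 8.10 (-0.75 ± 0.11, SE, adjusted p = 0.00382). Clk4 rose by 1.05 ± 0.19 (SE), a call lost with 1 array left out, and Tra2b, a splicing activator, by 0.70 ± 0.07 (SE, adjusted p = 0.000436). The 5 probe sets of Tra2b ranged from 0.11 to 1.01. Cirbp, the cold-inducible RNA-binding protein, was the second gene called down, a call lost with any WT array left out and without the block.

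Chromatin genes were called up in 6 of 27 histone demethylases and acetyl modifiers (22.2%, against 3.09% of all genes) and down in none (median change 0.08). With any 1 WT array left out 4 or 5 were called up, and 4 without the block. Kdm6b (JMJD3), which removes methyl groups from lysine 27 of histone H3, went from 8.75, 8.29 and 8.33 to 10.65, 10.63 and 10.54 (2.15 ± 0.18, SE, adjusted p = 0.00012). Sirt1, a deacetylase, went from 10.07, 10.04 and 10.02 to 11.93, 11.83 and 11.62 (1.75 ± 0.10, SE, adjusted p = 7.19e-06). Kdm6a (UTX), the relative of Kdm6b on the X chromosome, rose by 1.09 ± 0.18 (SE), though its least changed probe set gave 0.07, and Kdm3a by 1.0 ± 0.13 (SE, adjusted p = 0.00159). Of 24 noncoding RNAs and snoRNA host genes, 5 were called up (20.8%, against 3.09% of all genes) and 1 down (4.17%, against 1.79%). Pvt1 (1.01 ± 0.13, SE), Snhg12 (0.96 ± 0.10, SE, adjusted p = 0.000474) and Snhg1 (0.72 ± 0.10, SE) rose, the first and the last with other probe sets that gave -0.28 and -1.13. Neat1, which builds paraspeckles, differed by -1.79, -0.92 and -0.66 in the 3 experiments and did not pass (adjusted p = 0.0572).

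**Figure D3:**
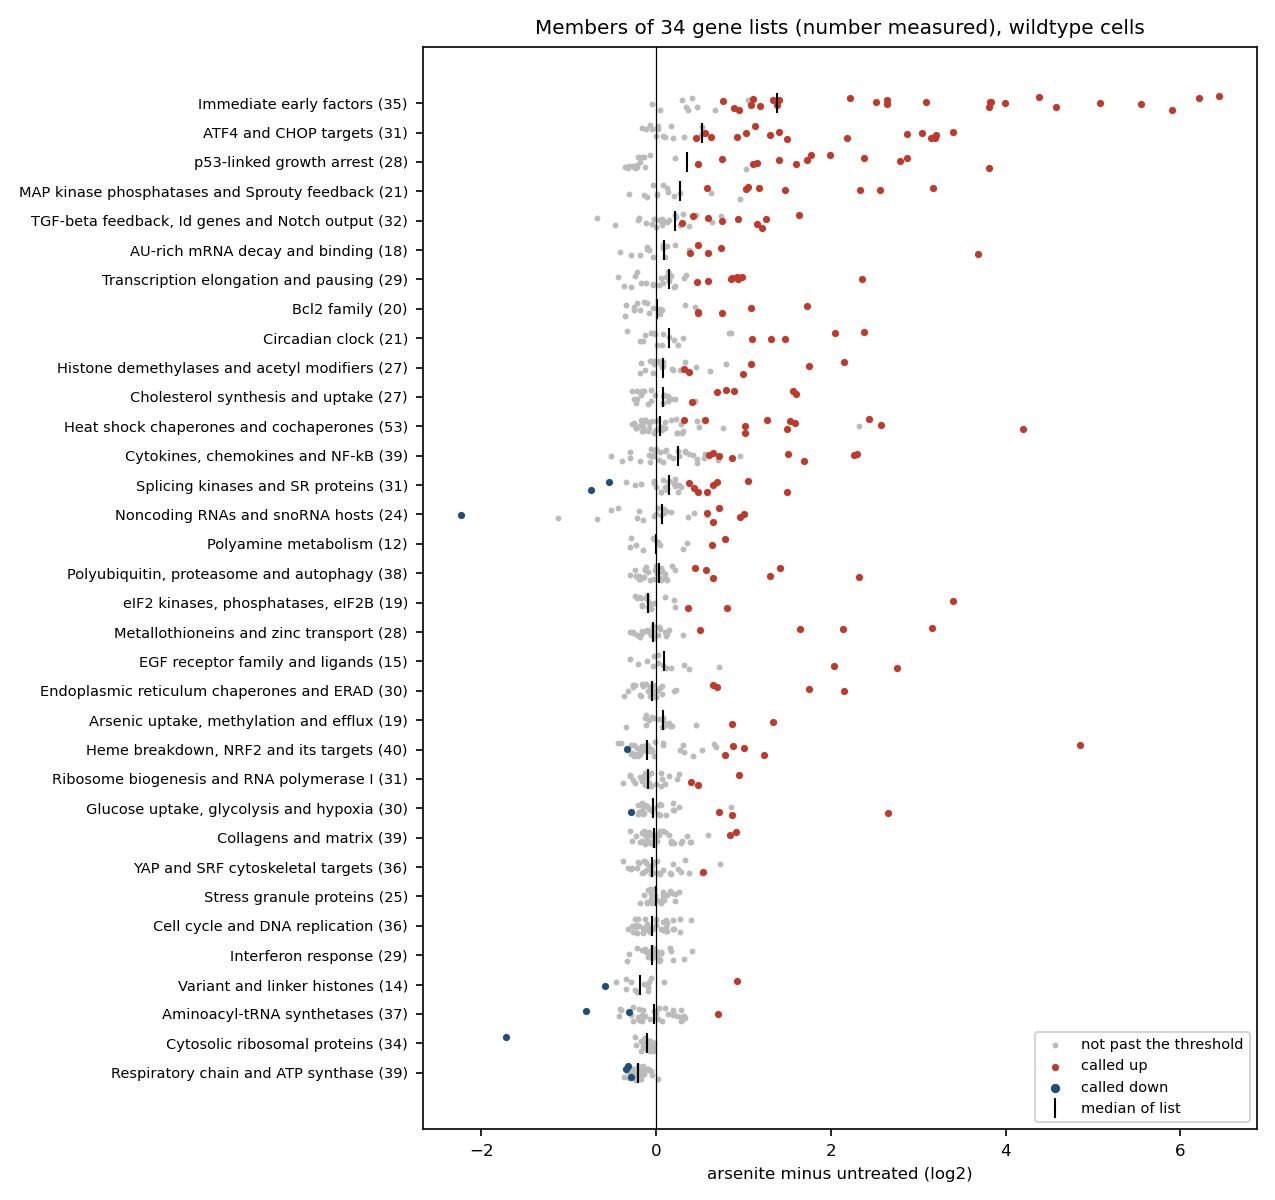
Each point is a measured member of 1 of 34 gene lists, placed at its change under arsenite in WT cells (x axis, log2), with members called up in red, called down in blue and others in grey, and a black bar at the list's median. Numbers in brackets count measured members. Immediate early factors have 25 of 35 members in red and a median of 1.39, while respiratory chain genes have 3 in blue and a median of -0.20.

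The largest falls were smaller than the largest rises, and several ended under the floor. LOC101056057 read 7.79, 7.89 and 8.06 untreated and 4.84, 4.83 and 6.37 treated, a fall of 2.57 (SE 0.25, adjusted p = 0.00027). The protein-coding gene 9930012K11Rik fell by 2.34 (SE 0.26). Dnm3os, the host RNA of miR-199a and miR-214, read 7.40, 6.62 and 8.36 untreated and 5.22, 5.26 and 5.20 treated, all treated arrays under the floor (-2.24 ± 0.30, SE, adjusted p = 0.0016). Its untreated arrays spread widely, so its 3 changes were -2.18, -1.36 and -3.17. Sft2d3, named for a family of Golgi transport proteins, went from 7.01, 6.05 and 7.47 to 4.87, 4.44 and 4.89 (-2.11 ± 0.24, SE). Ccnj, a cyclin, went from 6.85, 7.09 and 6.81 to 4.88, 5.52 and 5.58 (-1.59 ± 0.19, SE, adjusted p = 0.000797). Etaa1, an activator of the ATR kinase at stalled forks, went from 8.91, 8.83 and 8.80 to 7.35, 7.07 and 7.55 (-1.53 ± 0.13, SE, adjusted p = 0.000128), with -0.60 in its other probe set. Fzd8, a Wnt receptor, fell by 1.30 (SE 0.13). Mterf1a, of mitochondrial transcription termination, fell by 1.39 (SE 0.22), though a near-identical copy, Mterf1b, may share its signal. The falls of Tyw3, a tRNA-modifying enzyme, and of 2610019E17Rik were lost with 1 array left out (highest adjusted p = 0.0836 and 0.108). The falls of 2610203C20Rik, Tyw3, 2610019E17Rik and Fzd8 were not called without the block. The other genes among the 15 largest falls were Rpl12, B230117O15Rik, Zfp708, 2610203C20Rik and Zfp770.

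Developmental and zinc-finger factors were among the genes called down. Of 35 Hox genes, which encode homeodomain factors of body position, 4 were called down (11.4%, against 1.79% of all genes) and none up (median change -0.12), 2 or 3 with any 1 WT array left out and 2 without the block. Hoxa3 went from 7.91, 7.27 and 8.0 to 6.89, 6.51 and 6.84 (-0.98 ± 0.11, SE, adjusted p = 0.000629), although 1 of its 4 probe sets gave 0.09. Hoxd4 went from 6.20, 6.13 and 6.04 to 5.63, 5.71 and 5.51 (-0.51 ± 0.08, SE, adjusted p = 0.00609). The calls of Hoxa9 (-0.74) and Hoxb4 (-0.47) were lost with 1 array left out, and the other probe set of Hoxa9 gave 0.09. The 312 measured Zfp genes, which encode zinc-finger proteins, many of them repressors, split with 31 called up (9.94%, against 3.09% of all genes) and 19 down (6.09%, against 1.79%), and a median change of 0.00. With any 1 WT array left out, 21 to 27 were called up and 9 to 16 down. Without the block the counts were 20 up and 9 down. Of the 312, 268 were above the floor in a WT group, against 14358 of all 20753 genes. Zfp948 rose by 1.54 ± 0.13 (SE, adjusted p = 9.55e-05) with 0.20 in its other probe set, and Zfp869 by 1.34 ± 0.14 (SE, adjusted p = 0.000359). Zfp708 fell from 5.86, 5.88 and 5.87 to 4.24, 4.07 and 4.60 (-1.56 ± 0.14, SE, adjusted p = 0.000183), under the floor. Of 342 solute carriers, 11 were called up (3.22%) and 4 down (1.17%), near the shares of all genes. Slc3a2, the heavy chain of amino acid carriers, rose by 1.30 ± 0.12 (SE, adjusted p = 0.000233) and Slc25a33, a mitochondrial nucleotide carrier, by 1.28 ± 0.14 (SE, adjusted p = 0.000474).

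Changes of abundant housekeeping transcripts were small. Of 39 respiratory chain and ATP synthase genes none was called up and 3 were called down (7.69%, against 1.79% of all genes). They were the complex I genes Ndufb3 (-0.34 ± 0.08, SE), Ndufs7 (-0.32 ± 0.08, SE) and Ndufa4 (-0.29 ± 0.07, SE). Each of these calls was lost with 1 array left out, and without the block none was called. With the 3 called genes included, 26 of the 39 had all treated arrays below all untreated ones, against 10.6% of all genes. At an unadjusted p under 0.05 in the same fit, 25 of the 39 had a lower treated signal and 0 a higher one. Among all 20753 genes, 4043 passed that p in either direction. The list's median change was -0.20. Of 59 cytosolic ribosomal protein genes listed, only 34 were measured. Of these 34, Rpl12, read by 1 probe set, was called down (2.94%, against 1.79% of all genes). The others were not called (median change of the list -0.10, highest -0.02). The largest changes among those were -0.24 in Rps25 and -0.23 in Rps24, though the other probe set of Rps24 gave -1.45. Rpl12 went from 8.44, 9.11 and 8.87 to 6.78, 7.26 and 7.24 (-1.72 ± 0.25, SE, adjusted p = 0.00278). Of 31 ribosome biogenesis genes 3 were called up (9.68%, against 3.09% of all genes), Taf1d (0.95), Gnl3 (0.48) and Ubtf (0.41), and none down (median change -0.09). The calls of Gnl3 and Ubtf were lost with 1 array left out (highest adjusted p = 0.169 and 0.108), and that of Gnl3 also without the block. The probe sets of Taf1d, a subunit of a polymerase I factor, ran from -1.35 to 0.95.

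No call was made among 36 cell cycle and replication genes, with 3 up and 3 down at an unadjusted p under 0.05 and a median change of -0.04. The same held for 29 interferon response genes, with 1 up and 1 down at an unadjusted p under 0.05 and a median change of -0.04. The largest changes were 0.40 in Aurka, a mitotic kinase, and 0.41 in Tap1, a peptide transporter of antigen presentation. No member of either list was called without the block. Of 39 collagen and matrix genes 2 were called up (5.13%, against 3.09% of all genes) and none down, Has1, a hyaluronan synthase (0.91 ± 0.13, SE, adjusted p = 0.00217), and Plaur, the urokinase receptor (0.85 ± 0.19, SE, lost with 1 array left out). Neither was called without the block. Of 14 histone variant and linker histone genes 1 was called up (7.14%, against 3.09% of all genes), H1f2 (0.93, with 0.35 in its least changed probe set). H2bc21 (-0.59) was called down (7.14%, against 1.79%), and both calls were lost with 1 array left out. At 3 arrays a group, changes of this size could be missed: in simulated data the fit recovered 45.8% of changes of 0.5, 89.4% of changes of 1 and 97.6% of changes of 2. The simulation changed 200 genes, fewer than were called here, and drew noise independently for each gene. Recovery in the real data may therefore differ.

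Probe sets of 1 gene did not always move together. Among the 211 genes named by rule, several probe sets were present for 119, and for 64 a second probe set gave under 50% of the reported change or the opposite sign. The reported probe set is the 1 with the highest mean signal, and probe sets can read different ends or forms of a transcript.

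The 3 replicate experiments differed in which genes responded most. Over all 641 genes called up the median change was 0.79, 0.76 and 0.67 in experiments 1, 2 and 3, and the smallest of a gene's 3 changes fell in experiment 3 in 353 of them. Heat shock chaperones leaned further that way: the smallest change was in experiment 3 in 10 of the 11 called up, and their median changes were 1.59, 1.97 and 0.91. Hspa1l differed by 3.08, 3.26 and 0.97 in experiments 1, 2 and 3, and Hsph1 by 2.28, 2.02 and 0.48. All 6 ubiquitin and autophagy genes called up had their smallest change in experiment 3, with median changes of 1.19, 1.03 and 0.73. Immediate early factors leaned the other way. The largest change was in experiment 3 in 17 of 25 called up, against 156 of all 641, and their medians were 2.88, 2.42 and 3.36. Of these 25, 18 had their lowest untreated array in experiment 3, a larger share than among all 641 genes called up. Whether low untreated signals account for their larger changes in experiment 3 was not tested. Egr3 differed by 5.67, 5.81 and 7.85, Btg2 by 3.35, 3.14 and 4.93 and Nppb, the gene of brain natriuretic peptide, by 0.48, 1.27 and 2.33. Of the remaining genes with the widest spread, Sphk1, a sphingosine kinase, differed by 2.52, 3.0 and 1.29, and Rgcc, a regulator of the cell cycle, by 2.73, 3.13 and 0.66. The calls of Hspa1l, Hsph1, Nppb, Sphk1 and Rgcc were lost with 1 array left out (highest adjusted p = 0.154, 0.172, 0.157, 0.0953 and 0.157).

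**Figure D4:**
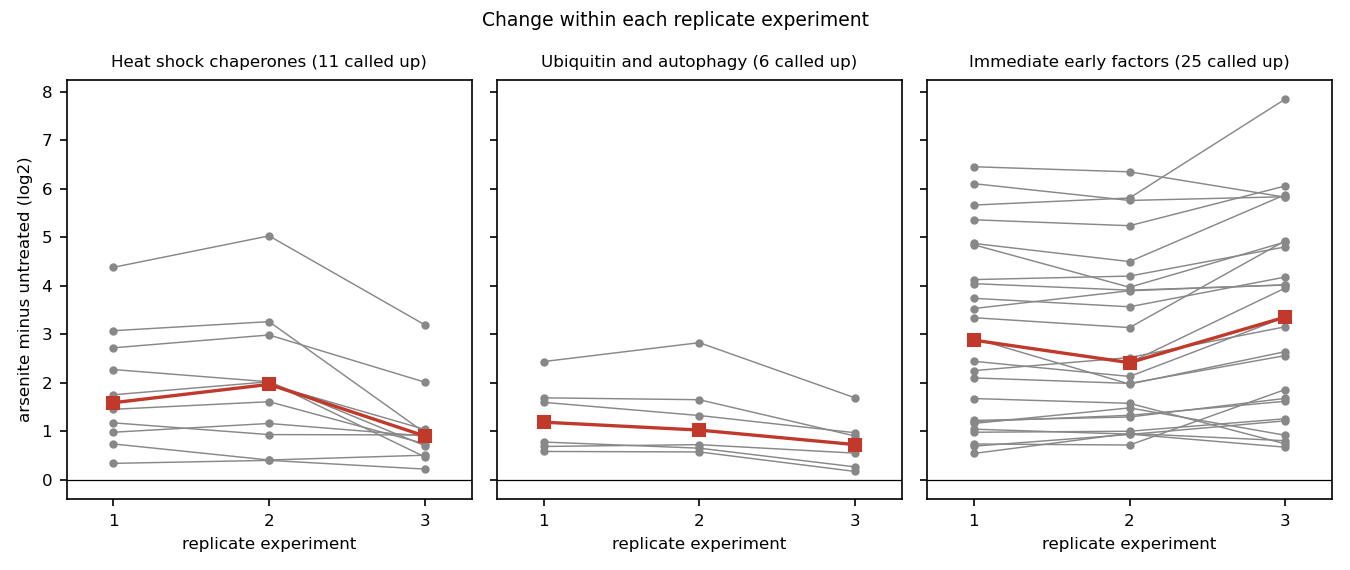
Change between the treated and the untreated WT array of each replicate experiment (y axis, log2; x axis, experiment number) for the members called up in 3 gene lists. Grey lines are genes and red squares the medians, which were 1.59, 1.97 and 0.91 for 11 heat shock chaperones, 1.19, 1.03 and 0.73 for 6 ubiquitin and autophagy genes and 2.88, 2.42 and 3.36 for 25 immediate early factors.

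Genes with large rises and genes called down were short. Gene span, from start to end of the gene in RefSeq (GRCm38.p6), was known for 87.9% of the genes tested, 96.3% of those called up and 87.1% of those called down. The median span was 20.6 kb over all genes tested and 22.1 kb over genes above the floor in a WT group. Genes called up at least 4-fold had a median of 7.20 kb, with 36.7% under 5 kb and 0% over 100 kb, against 13.7% and 12.6% of genes above the floor. At least 2-fold, the median was 13.6 kb with 24.1% under 5 kb. Genes called up by less than 2-fold were longer, with a median of 28.5 kb. Genes called down were short as well, with a median of 9.88 kb, 30.9% under 5 kb and 2.78% over 100 kb. Among protein-coding genes alone the medians were 23.1 kb above the floor, 7.20 kb in rises of at least 4-fold and 10.4 kb in falls. These are descriptions without a test, and the genes of unknown span were left out. Neither signal level nor gene family was held constant.

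**Figure D5:**
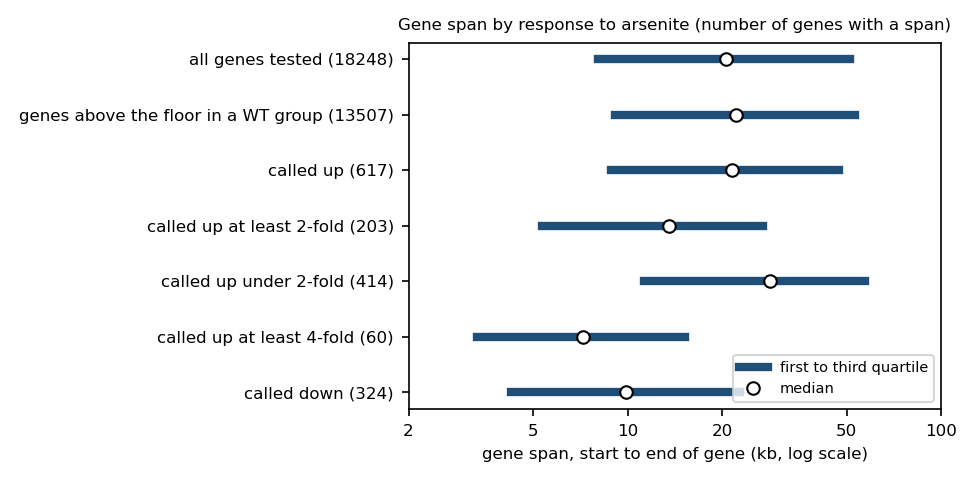
Gene span in kb (x axis, log scale) for groups of genes by their call in WT cells, with the number of genes that have a span in brackets. Bars run from the first to the third quartile and circles mark medians, at 22.1 kb for genes above the floor, 7.20 kb for rises of at least 4-fold and 9.88 kb for genes called down.

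Most genes called in WT cells were also called in GADD34 KO cells. Of the 641 genes called up in WT cells, 525 were called up in KO cells too, and of the 372 called down, 269 were. In KO cells 3051 genes were called (14.7%), 1376 up and 1675 down, so these are smaller shares of the KO lists. A single gene, Snord89, a small nucleolar RNA gene named here after its values were seen, was called up in WT and down in KO cells. The test of the difference between the responses called 12 genes (0.0578% of those tested), 7 of which were called in WT cells. Without the untreated WT array of experiment 1, 2 or 3 it called 1, 4 or 1, and without the treated WT array of experiment 1, 2 or 3 it called 1, 1 or 12. Beside Ppp1r15a these were Dusp2, Hspa1b, Maff, Dusp1, Chaserr and Slc2a1, and in each of those 6 the WT rise was the smaller. In Dusp1, a phosphatase of p38 and JNK, the WT arrays started at 12.51, 12.26 and 12.33 and reached 13.51, 13.33 and 13.78, while KO arrays started at 10.86, 11.28 and 11.16 and reached 13.81, 13.91 and 13.75. Maff, a small Maf factor, started at 10.66, 10.45 and 10.27 in WT and 8.72, 9.23 and 8.58 in KO cells and reached 11.86, 11.78 and 11.89 and 11.94, 11.79 and 11.88. In both genes, as in Hspa1b and Slc2a1, the untreated WT arrays all stood above the untreated KO arrays, while the treated arrays of the genotypes lay much closer together. Dusp2 was different, since treated WT arrays read 8.70, 8.77 and 8.72 against 13.01, 12.66 and 12.30 in treated KO cells.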

How the data were processed

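RNA of 12 cultures was read on Affymetrix Mouse430_2 arrays. The deposited values are log2 signals per probe set made by the authors with RMA, per the submitters' processing notes; the sources used here give no version. RMA forces all arrays to the same distribution, so changes are relative to the array as a whole. The authors' deposited p-values were not used. Array codes in the column names were tied to groups through the authors' mean columns, which equal the mean of 1 code each within 1e-06. In a shorter deposited table of 26382 probe sets, 2 columns equal the array of their own label and 10 equal another array, so its labels were not used for groups.

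Of 45101 probe sets, 64 controls, 5654 without and 1253 with several symbols were left out. Of the 38130 left, 35046 matched RefSeq (GRCm38.p6) by Entrez identifier and 2094 symbols were updated. The probe set with the highest mean stood for each of 20753 genes, 9634 of which had more than 1. limma 3.58.1 (R 4.3.3, with statmod 1.5.0) fitted group means and the replicate experiment as a block to the 12 arrays (6 residual degrees of freedom). The threshold was 0.05 after Benjamini-Hochberg adjustment. Replicate numbers pair the arrays, because the series' design gives each replicate experiment all 4 conditions, and arrays of 1 number deviated together (correlation of deviations 0.231 to 0.738 in 18 pairs, against -0.575 to -0.0107 in 36 pairs of different number). In simulated data with 200 of 20753 genes changed, 5.83% of calls were false. Noise there was independent between genes and fewer genes changed than were called here, so this share need not hold for the real calls. Precision is limited by the number of arrays.

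The rule for named genes took Ppp1r15a, the 15 largest rises and falls with groups apart, up to 4 called and 2 uncalled members of each list with the largest changes, the 10 called genes with the widest range over experiments and up to 10 called genes with the largest difference in response. Other called list members are named without values. Members, lists and markers were chosen with earlier results of these data known. Some results withheld for evaluation are not reported here.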

Additional observations from a re-analysis of the deposited data

Results flagged for a closer look

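The test of the difference between the KO and the WT response (limma, adjusted p) called 7 genes that were also called in WT cells, and these values are the KO change minus the WT change on the log2 scale. For Ppp1r15a, the deleted gene, the difference was -3.43 (SE 0.28, adjusted p = 0.00368), since the signal rose in 3 of 3 WT experiments and differed by -0.03 in KO cells. Dusp2 differed by 2.86 (SE 0.29, adjusted p = 0.0182), with changes of 2.56 in WT and 5.42 in KO cells. Hspa1b differed by 2.21 (SE 0.25, adjusted p = 0.0219): WT arrays went from 12.97, 12.66 and 13.06 to 14.56, 14.63 and 14.10, KO arrays from 10.44, 10.66 and 10.69 to 14.50, 14.54 and 13.98. The treated arrays of both genotypes lay near the top of the range of all genes, where a change can be understated. Whether this affected the size of the difference was not tested, so that size is uncertain. Maff differed by 1.64 (SE 0.21, adjusted p = 0.0286) and Dusp1 by 1.55 (SE 0.20, adjusted p = 0.0286). Slc2a1 differed by 1.11 (SE 0.14, adjusted p = 0.0286), with KO arrays at 10.66, 10.95 and 10.88 untreated and 12.82, 12.96 and 12.64 treated. Chaserr, a noncoding RNA gene next to Chd2, differed by 1.36 (SE 0.15, adjusted p = 0.0219). Its own WT call was lost with 1 array left out (highest adjusted p = 0.137). Between settings, the number of genes with a difference ran from 0 to 46.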

How the results depend on the processing

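The count of called genes depended on the replicate block, on single arrays and on the threshold. Of 1013 calls, 441 were left with no replicate block and 564 with no replicate block over the 6 WT arrays alone. Leaving out 1 WT array gave 501 to 693 calls, and leaving out all arrays of 1 replicate 301 to 483. An adjusted p under 0.01 left 457 and a change of at least 1 left 247, by construction. Between 860 and 1466 were called with a random block, a block over the WT arrays alone, other normalizations, dim genes left out, other choices of probe set or a trended variance. With arrays grouped by the labels of the shorter table, limma called 0, with 38 at an unadjusted p under 0.05.

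The 12 genes whose response differed between genotypes became 7 with no replicate block, 19 with a random block, 28 with arrays centred on their median, 22 without probe sets named _x_at or _s_at, 46 with a trended and robust variance and 1 at an adjusted p under 0.01. They became 0 under the labels of the shorter table (73 at an unadjusted p under 0.05), 1 to 12 with 1 WT array left out and 0 to 6 with a whole replicate left out.

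Under the labels of the shorter table the changes of Ppp1r15a (-0.16), Mterf1a (0.41), Rgcc (-0.51), Pars2 (0.04), Slc30a1 (-0.01), Clk2 (0.09), Has1 (-0.17) and Hoxb4 (0.13) reversed, and with the mean over probe sets those of Bmf (-0.06) and Taf1d (-0.44) did. Those labels mix arrays of different conditions, as their columns show; the other causes were not tested. Small changes and signals near the floor limit what 3 arrays a group can show.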
